A study of Mus musculus with 4 samples.

Results

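The antigen receptor loci are the genomic regions that encode antibodies and T cell receptors. The 4 loci described here were delimited by position on mouse build mm9, though they were picked for description with earlier results of these data known. Igk, the immunoglobulin kappa light chain locus, was taken as chromosome 6 from 67.5 to 70.7 Mb. Igh, the immunoglobulin heavy chain locus, was taken as chromosome 12 from 114.5 to 117.2 Mb. Tcrb, the T cell receptor beta locus, was taken as chromosome 6 from 40.8 to 41.5 Mb. Tcra/Tcrd, where the T cell receptor delta genes lie inside the alpha locus, was taken as chromosome 14 from 53 to 54.9 Mb. All genomic probes with a midpoint in these ranges were used, 452 of the 170305 on the array, and 451 of them were usable on all arrays: 135 in Igk, 163 in Igh, 59 in Tcrb and 94 in Tcra/Tcrd. The 1 Mb on either side of each locus served as comparison.

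Replication timing had been measured on 4 arrays of 2 colours in fibroblasts, which are connective tissue cells, grown from mouse embryos. Dividing cells took up the nucleotide analogue BrdU (50 µM, 1 hour), fractions from early and late S phase were sorted from 80000 cells, and the BrdU-containing DNA of both was amplified and hybridised together, early DNA in Cy3 and late DNA in Cy5. Timing is given as log2 of the early signal over the late signal, with the autosomal median of each array set to 0, and earlier DNA has the higher value. The study set control cells against a Suv4-20h knockout (KO) on 1 slide, to compare timing with and without an enzyme that methylates histone H4. On a second slide it set a non-induced against an induced Suv4-20h mutant.

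The genotype given for the KO is deletion of a floxed Suv4-20h1 allele. The treatment text, the same for all samples, describes that deletion by 4-hydroxytamoxifen (1 mM, 24 hours). Neither the means of induction nor its effect on the enzyme is given in the sources used here. All 4 samples are labelled as 1 cell line, whose number varies between label fields. Each group had 1 array, so no difference between conditions could be tested. Each standard error (SE) below is taken over probes and covers the variation along a region, not the variation between cultures. The arrays measured DNA, so neither the silence of the loci nor the fibroblast identity of the cells could be checked on them.

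Antigen receptor genes are assembled in developing lymphocytes by V(D)J recombination, which joins 1 of many variable (V) segments to joining (J) and, in some loci, diversity (D) segments near the constant (C) region. Other cell types keep the segments in germline order and do not use them. In cells that do not make antibodies, Igh is known for a replication timing transition near its constant end, with early DNA on the constant side and late DNA across the V segments. In the RefSeq gene table of assembly GRCm38.p6, used for names and order only, Igk held 162 V segments and Igh 183, Tcrb 35 and Tcra/Tcrd 136. The same table placed the constant genes at the high-coordinate end of Igk, Tcrb and Tcra/Tcrd and at the low-coordinate end of Igh. Distances below run from the constant end.

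The protein-coding genes nearest the constant ends were Rpia at Igk, Tmem121 at Igh, Ephb6 at Tcrb and Dad1 at Tcra/Tcrd. Nearest the variable ends of Igh, Tcrb and Tcra/Tcrd were Zfp386, Moxd2 and the odorant receptor gene Olfr1510, in that order. Several unrelated genes lie among the segments, among them Adam6a, a sperm surface protein gene of Igh, and Prss2, a trypsinogen gene of Tcrb. The array files pair probes with positions and not with genes, so these names are landmarks without a timing value of their own.

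The 150 bases before the start of 4 landmark genes are printed from RefSeq (GRCm38.p6) to contrast the kinds of DNA at the early edges and inside the loci. CG dinucleotides, the sites of DNA methylation, are in capitals. Tmem121 and Dad1 border constant ends whose outer part replicated early on all arrays, and Adam6a and Prss2 lie within Igh and Tcrb.
Tmem121, chr12:113185753-113185902, plus strand: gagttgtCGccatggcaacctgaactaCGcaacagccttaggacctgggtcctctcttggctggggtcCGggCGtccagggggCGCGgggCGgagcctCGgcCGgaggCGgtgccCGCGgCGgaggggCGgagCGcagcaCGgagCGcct
Dad1, a subunit of the enzyme that attaches sugar chains to proteins, chr14:54253930-54254079, minus strand: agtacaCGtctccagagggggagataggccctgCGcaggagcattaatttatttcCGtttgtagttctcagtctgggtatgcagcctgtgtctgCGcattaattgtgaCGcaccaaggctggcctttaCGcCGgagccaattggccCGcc
Adam6a, chr12:113543758-113543907, plus strand: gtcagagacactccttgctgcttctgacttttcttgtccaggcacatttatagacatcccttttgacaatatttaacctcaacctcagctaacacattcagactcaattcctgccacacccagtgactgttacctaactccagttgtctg
Prss2, chr6:41521626-41521775, plus strand: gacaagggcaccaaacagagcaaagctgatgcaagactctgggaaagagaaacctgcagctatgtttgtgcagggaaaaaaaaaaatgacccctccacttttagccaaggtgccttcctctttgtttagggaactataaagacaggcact
The printed stretch held 17 CG in Tmem121 and 8 in Dad1, and 0 in Adam6a and in Prss2. Over the 250 bases before the start, the 8 constant-side genes with a sequence (the nearest and the next at each locus) had a median of 19 CG, from 1 to 27. They include those of Igk and Tcrb, whose constant ends had a timing below 0 on all arrays. The 15 genes embedded in the loci with a sequence, of 19, had a median of 0 CG and at most 7. Most of the 15 lie in Tcrb and none in Igk, so they do not describe each locus. Genes on the variable side ranged from 0 CG, as in Moxd2, to 13 in Vipr2. All 32851 RefSeq promoters had a median of 6, and 92.1% held at least 1 CG. These coordinates are of another build than the array and were not joined to it.

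Igk, Igh and Tcrb had means below 0 on every array, while Tcra/Tcrd lay near 0. Igk had a mean timing of -0.39 (control), -1.18 (KO), -0.66 (non-induced) and -1.34 (induced). Igh stood at -0.35 (control), -0.99 (KO), -0.60 (non-induced) and -0.92 (induced). Both immunoglobulin loci were thus lower in KO than in control and lower in induced than in non-induced cells. The same held for the T cell receptor loci given next and for the median window of the genome. Tcrb had -0.99 (control), -1.28 (KO), -0.99 (non-induced) and -1.54 (induced). Tcra/Tcrd had 0.08 (control), -0.13 (KO), 0.15 (non-induced) and -0.01 (induced). The SE of these means was 0.04 to 0.07 in Igk, 0.04 to 0.08 in Igh, 0.06 to 0.11 in Tcrb and 0.09 to 0.10 in Tcra/Tcrd. Tcrb was the latest of the loci on every array, though in KO cells it differed from Igk by little more than the SE, and Tcra/Tcrd was the earliest. Of all 12000 windows of 200 kb (5 or more usable probes each), 7.71% were later than the Tcrb mean in control cells, 39.9% than that of Igk, 41.4% than that of Igh and 59.1% than that of Tcra/Tcrd. In KO cells 20.7% of windows were later than the Igk mean, 30.9% than that of Igh, 15.1% than that of Tcrb and 54.9% than that of Tcra/Tcrd. In the same order the shares were 33.3%, 36.0%, 17.8% and 60.6% in non-induced cells and 21.6%, 38.8%, 12.5% and 58.7% in induced cells. By this share Igh ranked slightly earlier in induced than in non-induced cells, although its mean was lower. Tcrb likewise ranked earlier in KO than in control cells, although its mean was lower.

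**Figure D1:**
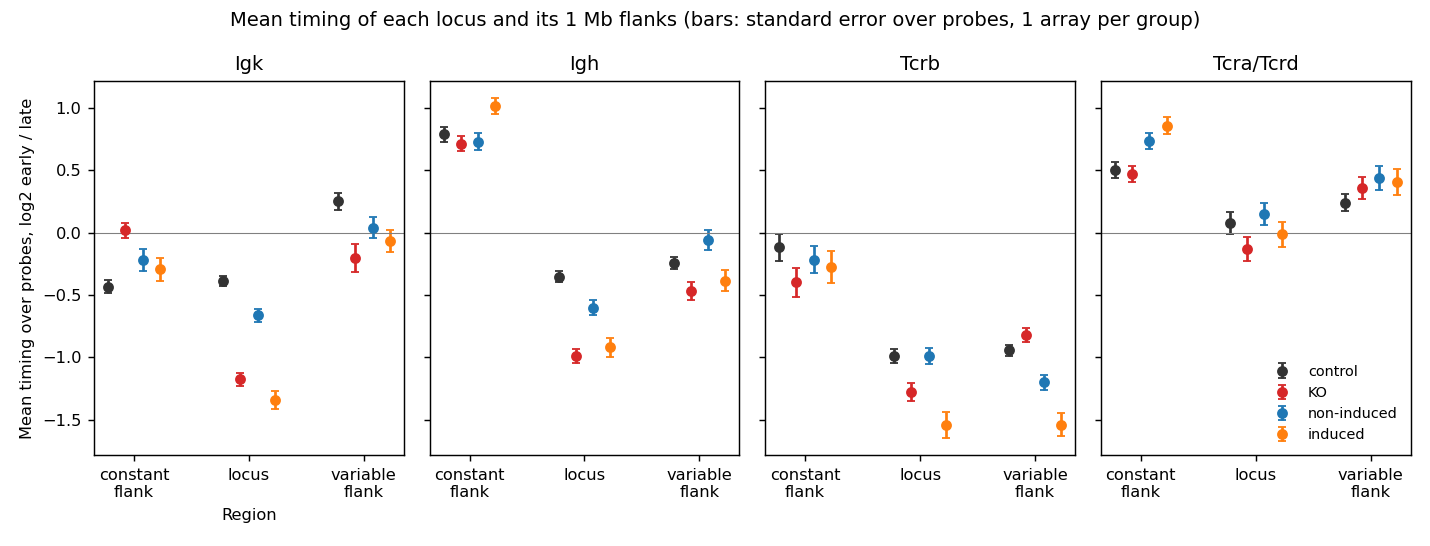
Mean timing (log2 early over late) of each locus and of its 1 Mb flanks on the constant and the variable side, for the control, KO, non-induced and induced arrays; points are means over probes and bars are SE over probes, 1 array per group. The constant-side flanks of Igh and Tcra/Tcrd lie above 0 on all arrays, and the Igk locus ranges from -0.39 in control to -1.34 in induced cells.

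All 4 loci had a lower mean than their flanks together on each array. The locus minus flank difference, averaged over the 4 arrays, was -0.77 ± 0.42 (SD) for Igk, -0.93 ± 0.26 for Igh, -0.53 ± 0.18 for Tcrb and -0.49 ± 0.15 for Tcra/Tcrd. The arrays are 4 conditions and not replicates, so the SD describes how much the contrast varied among them. Igk varied most, from -0.27 in control to -1.15 in induced cells. The Tcrb value depends on the flank chosen and was -0.02 with flanks of 500 kb.

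Igh showed the largest contrast with its constant side. That flank had a mean of 0.79 (control), 0.71 (KO), 0.73 (non-induced) and 1.01 (induced), with an SE of 0.06 to 0.07. The variable-side flank of Igh, beyond the V segments, had -0.24, -0.47, -0.06 and -0.38 in the same order. Tcrb lay in late surroundings on its variable side, where the flank had -0.94, -0.82, -1.20 and -1.54, close to the locus itself in control and induced cells, above it in KO and below it in non-induced cells. Its constant-side flank had -0.12 in control and -0.40 in KO cells. Tcra/Tcrd lay between earlier flanks on both sides, from 0.47 to 0.86 on the constant side and from 0.24 to 0.44 on the variable side.

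The border between early and late DNA in Igh lay inside the constant end. It was placed where the running mean of 7 probes first fell below 0, and its ± value is the reach of those 7 probes to either side. The border was 238 ± 44 kb from the constant end in control, 224 ± 41 kb in non-induced, 199 ± 30 kb in induced and 84.8 ± 37 kb in KO cells. The KO border was therefore nearer the constant end than the others by more than those spans. Over 11 other ways of computing it the KO border stayed between 76.2 and 99.4 kb, and the other 3 arrays between 180.0 and 254 kb. Not all of these could move it: scaling to the same spread keeps the sign of every value, and the deposited table repeats the ratios. Centring on the median window and removal of trends, used below for the differences, were not among these ways. The window that holds the border of the other 3 arrays, chr12:114600001-114800000, had a timing of 0.10 in control, 0.22 in non-induced, 0.05 in induced and -0.65 in KO cells. The window before it, chr12:114400001-114600000, where the KO border lay, was the earliest of the locus, at 0.77, 0.52, 1.05 and 1.21 in control, KO, non-induced and induced cells. The latest window of Igh, chr12:115000001-115200000, had -0.73, -1.51, -1.22 and -1.59 in that order.

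**Figure D2:**
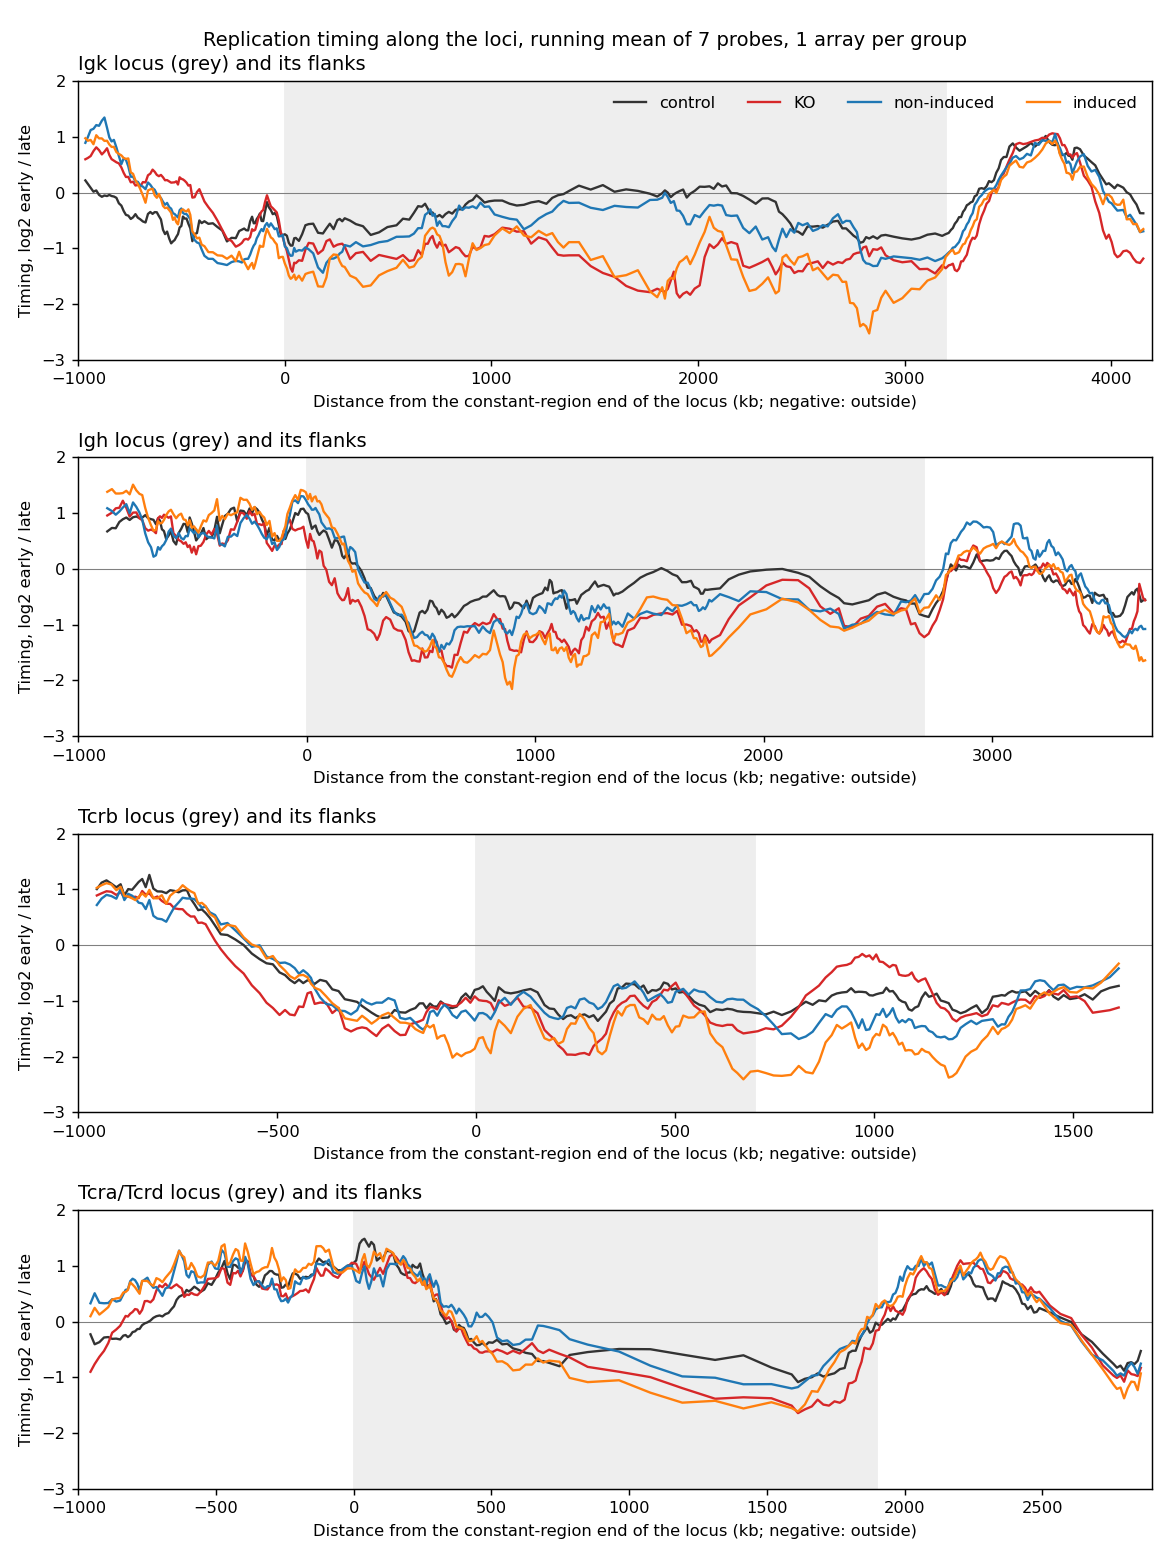
Running mean of timing over 7 probes (log2 early over late) against distance from the constant-region end of each locus in kb, with negative distances outside the locus and the locus in grey, 1 line per array. In Igh the KO line crosses 0 at 84.8 kb and the other lines between 199 and 238 kb. Across the middle of Igk the control line stays near 0 and the KO line lies well below it, with KO windows from -1.77 to -0.79.

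Tcra/Tcrd was split into an early constant end and a late variable end on every array. Each locus was also divided into 4 sections of equal length. The section of Tcra/Tcrd next to the constant genes had 0.61 (control), 0.50 (KO), 0.64 (non-induced) and 0.59 (induced) over 52 probes. The section at the variable end had -0.66, -1.16, -0.59 and -0.70 in that order over 23 probes. The difference between these ends was 1.27 ± 0.15 (control, SE), 1.66 ± 0.17 (KO), 1.23 ± 0.15 (non-induced) and 1.29 ± 0.19 (induced). The border lay at 336 ± 30 kb (control), 364 ± 28 kb (KO), 417 ± 27 kb (non-induced) and 373 ± 27 kb (induced). Under the 11 alternatives the ranges of the 4 arrays overlapped, from 315 kb at the lowest to 485 kb at the highest. The earliest window, chr14:54600001-54800000, had 0.90, 0.87, 0.89 and 0.88 in control, KO, non-induced and induced cells, a spread far below that of the latest window. That latest window, chr14:53200001-53400000, had -0.99, -1.52, -1.18 and -1.50. The middle of the locus was hardly covered, since the third section from the constant end held 1 probe and the largest gap between probes was 373 kb. In Igh the section next to the constant genes had -0.24 (control), -0.87 (KO), -0.31 (non-induced) and -0.40 (induced). It was thus below 0 on all arrays, although its outer part was early.

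Igk and Tcrb had no such border, because the running mean was already below 0 outside their constant ends on all arrays. In Igk the control array rose towards the middle of the locus and fell at both ends. From the constant to the variable end, its sections had -0.57, -0.15, 0.00 and -0.73. In KO cells the same sections had -1.06, -0.96, -1.43 and -1.25, and the third section, nearest to 0 in control cells, was the latest. Non-induced cells had -0.90, -0.31, -0.41 and -0.88, and induced cells -1.28, -0.98, -1.33 and -1.72. In Tcrb the second section from the constant end was the latest, at -1.28 (control), -1.82 (KO), -1.18 (non-induced) and -1.74 (induced), and in induced cells the section at the variable end was level with it at -1.73. The earliest window of Igk by the mean of arrays, chr6:69200001-69400000, had 0.08 (control), -1.09 (KO), -0.13 (non-induced) and -0.83 (induced). Its latest window, chr6:67800001-68000000, had -0.76, -1.12, -0.95 and -2.13. In Tcrb the earliest window was chr6:41000001-41200000, at -0.85, -1.08, -0.89 and -1.44, and the latest was chr6:41200001-41400000, at -1.18, -1.73, -1.12 and -1.50.

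The comparison of KO with control cells asks how timing differs when Suv4-20h1 is deleted. KO minus control was -0.79 ± 0.06 (SE) in Igk, where 122 of 135 probes were lower, and -0.63 ± 0.05 in Igh, where 144 of 163 were lower. Tcrb had -0.29 ± 0.05 and Tcra/Tcrd -0.21 ± 0.05, with 49 of 59 and 63 of 94 probes lower. Over all 169660 usable probes the median difference was -0.09 and 56.5% were lower, and the median window stood at -0.16. Centring on that window left -0.63 in Igk, -0.48 in Igh, -0.13 in Tcrb and -0.05 in Tcra/Tcrd.

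A window counts as called if its difference is no smaller than 3 SE and than 0.25 of the reference array's spread, its 10th to 90th percentile range over windows, which set the limit at 0.45 for KO. In the loci 21 of 33 windows were called later in KO cells and 0 earlier. Over the genome 22.2% of windows were called later and 8.02% earlier. The called windows were 10 of 13 in Igk, 8 of 12 in Igh, 1 of 3 in Tcrb and 2 of 5 in Tcra/Tcrd. The shares of Igk and Igh lay above that of the genome, while 3 and 5 windows are too few to set Tcrb and Tcra/Tcrd against it.

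The largest differences lay side by side in the variable part of Igk. Window chr6:68800001-69000000 had 0.02 (control) and -1.77 (KO), a difference of -1.79 ± 0.23 over 9 probes. Window chr6:68600001-68800000 had 0.06 and -1.56, a difference of -1.62 ± 0.31. Window chr6:69200001-69400000 differed by -1.17 ± 0.26 and chr6:68200001-68400000 by -1.03 ± 0.19. These windows were near the genome's middle in control cells and late in KO cells, except the last, which had -0.38 in control cells. The other called windows of Igk were 6 and differed by -0.63 to -0.88.

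In Igh the called windows had similar differences across much of the locus. The largest difference was -0.89 ± 0.13 at chr12:116200001-116400000, from -0.36 in control to -1.26 in KO cells. The next was -0.83 ± 0.17 at chr12:115400001-115600000, from -0.44 to -1.28. The window across the early border, chr12:114600001-114800000, differed by -0.75 ± 0.10. The remaining 5 called windows differed by -0.52 to -0.78, and the flank on the constant side by -0.07 ± 0.07.

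The flanks of Igk differed in opposite directions between KO and control cells. The constant-side flank, which begins towards Rpia, went from -0.43 (control) to 0.02 (KO), a difference of 0.45 ± 0.05 in the earlier direction. The variable-side flank had 0.25 and -0.20, a difference of -0.46 ± 0.07. Igk minus its constant-side flank was therefore 0.05 in control and -1.19 in KO cells. The other 6 flanks differed by -0.28 to 0.12.

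**Figure D3:**
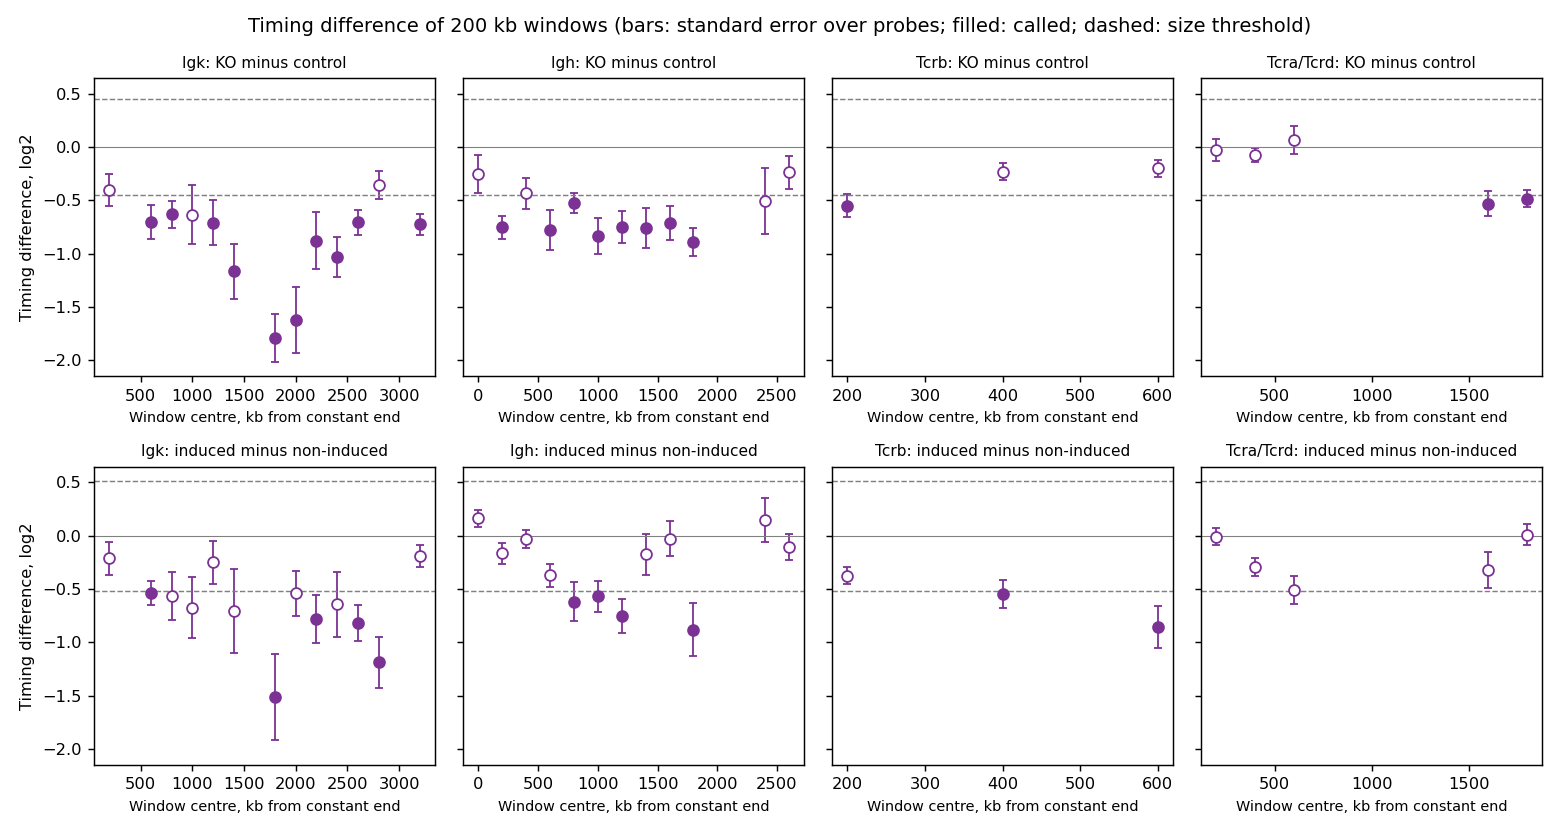
Timing difference (log2) of each 200 kb window of the loci, KO minus control in the upper row and induced minus non-induced in the lower row, against the distance of the window centre from the constant end in kb; bars are SE over probes, filled points were called later and dashed lines mark the size threshold. In the upper row 21 of 33 windows are filled, and in the lower row 11.

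The comparison of induced with non-induced cells asks how timing differs when the mutant is induced. Whether induction removes the enzyme was not tested, so the question need not be that of the KO comparison. Induced minus non-induced was -0.68 ± 0.07 in Igk and -0.56 ± 0.08 in Tcrb, with 115 of 135 and 48 of 59 probes lower. Igh had -0.32 ± 0.05 and Tcra/Tcrd -0.16 ± 0.05, with 116 of 163 and 64 of 94 probes lower. The median over all probes was -0.08, with 57.1% lower, and the median window stood at -0.13. Centring on that window left -0.54 in Igk and -0.42 in Tcrb, the latter below the limit of 0.52 used for calls. Over 14 other settings Igk ranged from -0.72 to -0.17 and Tcrb from -0.58 to -0.08. Igk reached the limit of the setting in 9 settings and Tcrb in 7, the main one included in each count. With the threshold at 0.52, 11 of 33 windows were called later and 0 earlier. Over the genome 11.9% were called later and 0.467% earlier. The called windows were 5 of 13 in Igk, 4 of 12 in Igh, 2 of 3 in Tcrb and 0 of 5 in Tcra/Tcrd.

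In Igk the largest difference was again at chr6:68800001-69000000, from -0.07 in non-induced to -1.58 in induced cells, or -1.51 ± 0.40. It was followed by chr6:67800001-68000000, at -1.19 ± 0.24, chr6:68000001-68200000, at -0.82 ± 0.17, and chr6:68400001-68600000, at -0.78 ± 0.23. The window nearest the constant end that was called, chr6:70000001-70200000, differed by -0.54 ± 0.12. All but the last of these lie nearer the variable end of the locus than its constant end.

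In Igh the called windows were chr12:116200001-116400000, at -0.88 ± 0.25, and 3 adjoining windows from chr12:115200001-115400000 to chr12:115600001-115800000, at -0.57 to -0.75. The 4 windows nearest the constant end were not called, and the constant-side flank was higher in induced cells by 0.28 ± 0.04. In Tcrb the window at the variable end, chr6:40800001-41000000, differed by -0.86 ± 0.20 and chr6:41000001-41200000 by -0.54 ± 0.13. The variable-side flank of Tcrb differed by -0.34 ± 0.06, and both flanks of Igk by -0.08 ± 0.04 and -0.11 ± 0.04.

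The 2 comparisons lie on different slides and share no array. In 8 of 33 windows, 4 each in Igk and Igh, both differences were called later, against 10 and 8 called in KO and 5 and 4 in induced cells. Over the genome 6.57% of windows were called later in both. The KO value was below control in 32 windows and the induced value below non-induced in 30, against 64.7% and 63.9% of all windows.

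In Igk and Igh the lower ratios of KO cells came with lower early signal. Relative to the autosomal median of each channel, the mean early signal of Igk was -0.24 in control and -1.11 in KO cells on the log2 scale, while the late signal was 0.13 and 0.00. In Igh the early signal was -0.35 and -1.14 and the late signal -0.02 and -0.22. In Tcrb the early signal was -0.02 and -0.15 and the late signal 0.95 and 1.06. In the constant-side flank of Igk the early signal was higher in KO cells, at 0.97 against 0.44, with late signals of 0.89 and 0.85. The early signal of Igk was -1.33 (non-induced) and -1.78 (induced), and its late signal -0.61 and -0.44.

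**Figure D4:**
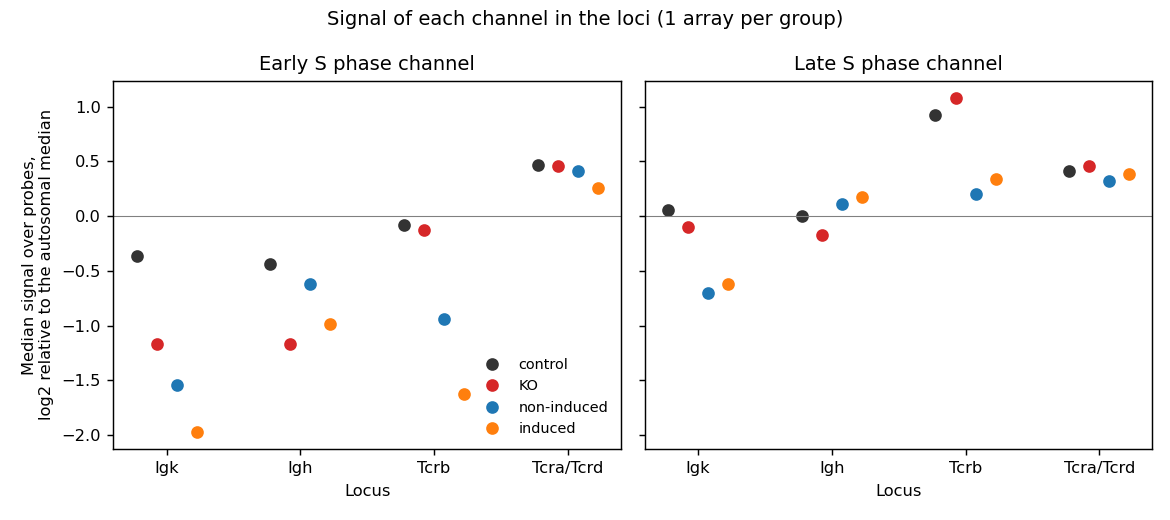
Median signal over the probes of each locus in the early (left) and late (right) S phase channel, in log2 relative to the autosomal median of the channel, for the 4 arrays. The early signal of Igk is -0.37 in control and -1.16 in KO cells on 1 slide, and -1.54 in non-induced and -1.97 in induced cells on the other. That of Tcra/Tcrd stays between 0.26 and 0.46.

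Igk, Tcra/Tcrd and Igh were thinly covered. Igk held 4.22 probes per 100 kb, Tcra/Tcrd 4.95 and Igh 6.07, against 8.43 in Tcrb and 7.5 to 9.5 in the flanks of all loci. The early signal was well above background for 98.5% (control), 85.2% (KO), 83.0% (non-induced) and 56.3% (induced) of Igk probes. In Igh it was so for 97.6%, 81.1%, 89.0% and 77.4% in the same order. For a probe below that level the early signal is only an upper bound, and so is its ratio if the late signal is above background. With only the 75 Igk probes well measured on all arrays, KO minus control was -0.63 and induced minus non-induced -0.40.

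Igk and Tcrb were dim on the second slide, taking the mean of both log2 signals relative to the autosomes. The median over Tcrb was 0.52 (control), 0.47 (KO), -0.43 (non-induced) and -0.67 (induced), and over Igk -0.19, -0.55, -1.08 and -1.48. In Igk the mean of both log2 signals had a median of -0.29 in the variable-end section in control cells and -0.48 in KO cells, but -1.89 in non-induced and -1.62 in induced cells. In non-induced cells 2.87% of all windows were dimmer than that section, compared with 31.9% in control cells. The section at the constant end differed less, at 0.05, -0.33, -0.23 and -0.34 in control, KO, non-induced and induced cells. The part of dim signal in the timing values of Igk and Tcrb was not tested.

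The size of the differences depends on the scale of the arrays. The 10th to 90th percentile range over windows was 1.81 (control), 2.31 (KO), 2.07 (non-induced) and 2.70 (induced). With arrays scaled to the same spread 12 windows of the loci were called later in KO and 2 in induced cells, against 13.7% and 1.87% of the genome. With the linear trend of the difference on timing removed 6 and 0 were called, against 8.60% and 0.70% of the genome. Igk in KO cells then had -0.42, below the limit of 0.45, Tcrb in KO cells turned to 0.19, and Igh in induced cells to 0.01.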

How the data were processed

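Each of the 4 samples was 1 2-colour array. The scanner software was Agilent Feature Extraction 11.5.1.1 with build mm9, per the file headers, and version 9.1 in the submitters' processing notes. Processed signals are intensity values, background-subtracted and scaled by 1 dye factor per channel in the authors' scanner software, per the file headers. The log10 ratio in the deposited files is that of late over early. The authors' deposited series table repeats its log10 values in all 180880 spots of each array. Spot flags of 0 or 1 are deposited in the same files. No dyes were swapped, and the depth behind an array value is limited by the number of probes.

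Timing here is the log2 ratio of the authors' processed signals, early over late. Control spots (6575) and outlier-flagged spots were dropped. Repeat spots of 1 probe were averaged, then the autosomal median was subtracted per array, without loess or quantile normalization. The 4 loci, their flanks, 200 kb windows, 4 sections per locus and channel signals were summarised over probes. A window was counted in a locus if its centre lay there, so a window at an edge can reach into a flank. Windows named are the earliest and latest of each locus and those called, at most the 12 largest per comparison; the rest stand in ranges. The loci, lists and rules were chosen with earlier results of these data known, and the Igk windows are among regions those results had shown. Window calls and border positions were tested on simulated data. Alternatives, 18 planned and 3 added after the data were seen, covered scaling, normexp (offset 50), loess, quantile normalization, the deposited table, dim and flagged spots, odd and even probes, bounds, flanks, trends, window size and threshold. Of 35 landmark genes 30 had a RefSeq promoter sequence. Tools were limma 3.58.1 in R 4.3.3, and pandas 2.3.3, numpy 2.4.6, statsmodels 0.14.6 and matplotlib 3.10.9 in Python 3.11.15.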

Additional observations from a re-analysis of the deposited data

How the results depend on the processing

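In the loci 0 windows were called earlier under every alternative run for both comparisons, and no called value changed sign. The values below moved by more than the interval set by their SE (1 SD for flank contrasts) or, for counts, by more than 1.5 times, and the cause was not tested. For KO minus control in Igk, Igh and Tcrb, arrays scaled to the same spread gave -0.66, -0.52 and -0.016, with 12 windows later. Quantile normalization gave -0.54, -0.40 and 0.16, with -0.081 in Tcra/Tcrd and 9 windows. Normexp gave -0.43 in Igk and -0.27 in Igh, with 13 windows. Loess gave -0.65, -0.45 and -0.39. Removing the trend on timing gave -0.42, -0.29 and 0.19, with -0.062 in Tcra/Tcrd and 6 windows. Removing the trend on intensity gave -0.54, -0.43 and -0.17, with 10 windows. Centring on the median window gave -0.63, -0.48, -0.13 and, in Tcra/Tcrd, -0.048. Well measured probes gave -0.63 in Igk, the median over probes -0.54 in Igh, and odd probes (windows with at least 3) 12 windows. The share of genome windows called later was 13.7% with scaling, 9.52% with quantile normalization and 13.6% with normexp. It was 8.60% with the timing trend removed, 12.6% with the intensity trend removed and 16.4% with odd probes.

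For induced minus non-induced in Igk, Igh and Tcrb, scaling gave -0.39, -0.11 and -0.21, with 2 windows later. Quantile normalization gave -0.32, -0.032 and -0.11, with 1 window, and normexp -0.17, -0.094 and -0.22, also with 1. Removing the trend on timing gave -0.28, 0.013 and -0.080, with 0 windows. Loess gave -0.46 in Igk and -0.21 in Igh, with 7 windows. Removing the trend on intensity gave -0.20 in Igh and 6 windows, and centring on the median window -0.54 in Igk, -0.18 in Igh, -0.029 in Tcra/Tcrd and 6 windows. Well measured probes gave -0.40 in Igk and 7 windows of 25 in place of 33, a threshold of 0.35 gave 7, and even probes 2 of 32. The share of genome windows called later was 1.87% with scaling, 1.21% with quantile normalization, 2.0% with normexp and 0.70% with the timing trend removed. It was 7.55% with loess, 6.45% with the intensity trend removed and 5.48% with centring. Well measured probes gave 7.07%, the threshold of 0.35 gave 5.32% and even probes 8.72%, so the even-probe count lay below its genome share.

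For the contrast of locus and flanks, normexp gave -0.25 in Igk and -0.58 in Igh. Flanks of 500 kb gave -0.017 in Tcrb and -0.76 in Tcra/Tcrd, flanks of 2 Mb -1.01 in Tcrb, and the median over probes -0.35 in Tcrb. Of 176 alternative values of the locus means, 172 kept their sign and 147 stayed within that interval. Of 176 differences between constant and variable ends, 165 kept their sign, and of 88 border positions 77 stayed within the reach of the running mean. Scaling to the same spread could move no border and turn no sign in these counts.

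No paired analysis was possible because each group had 1 array. Standard errors over probes do not cover variation between cultures, dyes were not swapped, and slides separate the comparisons. Igk in induced cells rests on 76 of 135 probes well above background in both channels.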

Other observations

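The arrays ordered the probes of Tcra/Tcrd alike and those of Igk much less so. Across the 94 probes of Tcra/Tcrd, Pearson's r between pairs of arrays was 0.71 to 0.87. Across the 135 probes of Igk it was 0.09 between control and KO, 0.15 between KO and non-induced, 0.44 between KO and induced and 0.45 between control and non-induced. Pairs of arrays had an r of 0.33 to 0.73 across Tcrb, 0.56 to 0.77 across Igh and 0.74 to 0.88 over all 169660 probes. The SD of timing over probes in control cells was 0.87 in Tcra/Tcrd and 0.45 in Igk, and its part in r was not tested. Neighbouring probes are not independent, and some pairs of arrays share a slide, so these values are a description.

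The differences of the 2 comparisons were little related from probe to probe within a locus. Pearson's r between KO minus control and induced minus non-induced was 0.25 in Igk, 0.04 in Igh, -0.15 in Tcrb and -0.10 in Tcra/Tcrd.

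One probe of Tcra/Tcrd, at chromosome 14 position 54885517 near the constant end, was printed 5 times on each array. Its timing was 1.15 ± 0.17 (SD over spots) (control), 1.04 ± 0.09 (KO), 1.33 ± 0.11 (non-induced) and 1.39 ± 0.09 (induced), which describes the precision of printing on an array.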
